A study of Mus musculus with 24 samples.

Results

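The genes of the eukaryotic translation initiation factors (eIFs) were followed in the mouse hippocampus with MeRIP-seq, in which RNA pulled down by an antibody against N6-methyladenosine (m6A) is sequenced beside the RNA it came from. They were taken as the gene symbols that begin with Eif, a digit from 1 to 6 and further lower-case letters or digits, with a mean estimated count of at least 10 over all 24 libraries. Of 58 such symbols among 55291 rows, the sex-linked Eif2s3x, Eif2s3y and Eif1ax were left out by name and 5 fell under the count minimum, which left 50 genes. Eif4ebp1 was the lowest inside the minimum with a mean count of 25.6, and Eif4a3l2 the highest outside it with 1.1. All 50 passed the filter on low counts in every test. The symbols also take in genes that carry the prefix without being initiation factors in the strict sense, among them the eIF2 kinases, the eIF4E-binding proteins and the exon junction helicase Eif4a3.

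There were 3 groups of 4 mice: untreated wild-type (WT) mice, and 5xFAD mice that received either the vehicle or MS1262. The 5xFAD line is a transgenic model of Alzheimer disease whose transgenes are driven by the neuronal Thy1 promoter, and MS1262 is described in the series title as an inhibitor of the histone methyltransferase G9a. Age is given only as matched, and dose, time and sex are not given in the sources used here. Each mouse gave 1 input library, which measures expression, and 1 library of the antibody-bound RNA (IP). Since the wild-type mice received no vehicle, genotype and dosing cannot be told apart in any comparison with them.

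Initiation begins when eIF2, loaded with GTP and the initiator tRNA, joins the small ribosomal subunit together with eIF1, eIF1A, eIF3 and eIF5. The cap-binding complex eIF4F, made of the cap binder eIF4E, the scaffold eIF4G and the helicase eIF4A, then brings in the messenger RNA, and eIF5B joins the large subunit once the start codon is found. Synapses rely on local initiation, which is held back by 4E-binding proteins under mTOR control and by phosphorylation of eIF2, which blocks its exchange factor eIF2B in the integrated stress response.

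The input libraries held 20692611 to 43150054 counts and the IP libraries 3984481 to 48597732, and the 50 genes took 0.614 to 0.818% of the counts of a library. A pair of vehicle animals stood apart. The IP library of vehicle animal 4 was the smallest by far, and its IP over input was the highest or the lowest of the 12 animals for 31 of the 50 genes, against 1 to 14 genes for each other animal. Vehicle animal 3 had 7665 CPM (read counts scaled to library size) of the choroid plexus gene Ttr in its input, against 33.0 to 811 CPM in the other inputs. Its input held 1.41 CPM of Xist, against 19.0 to 52.2 CPM in the libraries of the other animals. The Y-linked Ddx3y, Uty and Kdm5d had 0 counts in every vehicle and MS1262 library. Of these and Xist, 1 gene had 0 counts in all wild-type inputs and 2 in all wild-type IPs. In the wild-type inputs the 4 summed to 28.3 to 37.8 CPM, and Xist alone to 28.2 to 37.8 CPM. Counts of called genes that change without vehicle animals 3 and 4 are given with and without them below. So are the counts of genes with 1 direction in all animals, of overlap with the vehicle group and of genes with a peak. The 7 markers of excitatory hippocampal neurons were all found and summed to 1546 to 2463 CPM in the wild-type, 1710 to 2191 CPM in the vehicle and 1915 to 2466 CPM in the MS1262 inputs. The 7 microglial markers, also all found, summed to 212 to 249 CPM, 240 to 456 CPM and 296 to 360 CPM in the same order. In whole tissue, fewer cells of a type and less RNA per cell cannot be told apart.

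Start regions of the genes are shown first, because several m6A peaks lay at the 5′ end and because a pair of promoter motifs recurred. RefSeq (GRCm38.p6) gave 53 windows for 40 of the 50 genes, each from 250 bases before an annotated start to 50 bases after it. Peaks deposited for single animals reached this window in 8 animals for Eif3c, in 7 for Eif1b and in 6 for Eif4a3. The sequences below run 5′ to 3′ from 100 bases before the start, and capitals mark the first 30 transcribed bases of Eif3c (chr7:126566337-126566466, minus strand), Eif1b (chr9:120492506-120492635, plus strand) and Eif4a3 (chr11:119300014-119300143, minus strand).
Eif3c: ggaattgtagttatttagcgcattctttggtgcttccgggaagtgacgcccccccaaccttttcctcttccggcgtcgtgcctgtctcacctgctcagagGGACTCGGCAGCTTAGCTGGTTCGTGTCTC
Eif1b: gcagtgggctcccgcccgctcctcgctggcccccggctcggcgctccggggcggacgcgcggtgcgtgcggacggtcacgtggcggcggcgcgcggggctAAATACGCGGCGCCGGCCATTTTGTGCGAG
Eif4a3: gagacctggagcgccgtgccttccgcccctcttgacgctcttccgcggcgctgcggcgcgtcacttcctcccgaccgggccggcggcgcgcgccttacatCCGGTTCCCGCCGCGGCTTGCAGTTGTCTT
The first transcribed bases of Eif3c, a core subunit of eIF3, read GGACT, a form of the sequence in which m6A is commonly found. The peak summits of Eif3c near its start lay 51 to 353 bases from it, past the bases shown. GGACT occurred on the transcribed strand within the first 50 transcribed bases in 4 of the 53 windows, those of Eif2b4, Eif3c and Eif4g3, which is 7.55% against 5.76% of all 32851 windows. Eif1b and Eif4a3 were not among these genes, and Eif2b4 had no peak in any animal.

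A pair of further letters was searched on both strands of the whole 300-base window, CCGGAAG, the core bound by ETS factors, and CACGTG, the E-box bound by MYC and its relatives. CCGGAAG was found in 18 of the 53 windows, from 15 genes, which is 34.0% against 8.86% of all windows and 14.6% of the windows of tested genes. CACGTG was found in 12 windows, from 10 genes, which is 22.6% against 7.15% and 9.17%. The letters cannot overlap each other. The next windows show, in capitals, CACGTG in Eif4g1 (chr16:20672627-20672756, plus strand), the gene with the highest IP over input, and in Eif3f (chr7:108934315-108934444, plus strand), among the lowest.
Eif4g1: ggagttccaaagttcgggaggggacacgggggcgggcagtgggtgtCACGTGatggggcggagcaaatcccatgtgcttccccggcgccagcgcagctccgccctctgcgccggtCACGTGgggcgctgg
Eif3f: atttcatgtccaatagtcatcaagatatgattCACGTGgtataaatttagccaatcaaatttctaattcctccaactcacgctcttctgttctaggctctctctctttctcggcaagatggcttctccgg
In the last pair capitals mark CCGGAAG or its reverse complement in Eif3g (chr9:20898561-20898690, minus strand) and Eif1ad (chr19:5366713-5366842, plus strand), whose IP over input comes up again in the group comparisons.
Eif3g: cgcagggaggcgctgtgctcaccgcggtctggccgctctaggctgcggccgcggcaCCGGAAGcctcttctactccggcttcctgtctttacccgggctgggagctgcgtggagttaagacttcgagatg
Eif1ad: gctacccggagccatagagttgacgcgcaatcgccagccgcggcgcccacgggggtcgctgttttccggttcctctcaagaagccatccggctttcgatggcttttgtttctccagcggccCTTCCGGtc
These matches are descriptions of the letters, and binding was not measured.

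Expression of the genes varied widely in the input libraries. Between genes, levels were compared as TPM, the share of transcripts after scaling for depth and transcript length, and are given as mean ± SD over the 12 inputs. The helicase gene Eif4a2 was the highest with 1210 ± 153 TPM, far above its paralog Eif4a1 with 14.9 ± 1.51 TPM. Eif4e, the cap-binding subunit, followed with 372 ± 53.3 TPM and Eif4g2, the scaffold-like DAP5 gene, with 314 ± 24 TPM; their ranges over animals did not overlap those of Eif4a2 but overlapped each other. Next came Eif5, the GTPase activator of eIF2, with 253 ± 53.1 TPM and Eif1, a guardian of start codon choice, with 249 ± 27.0 TPM, which did not differ beyond their spread. Eif4a2 and Eif4a1, Eif1 and Eif1b, Eif3j1 and Eif3j2, and Eif5a and Eif5a2 are similar pairs whose shared reads were divided by the estimate, so levels within such pairs are uncertain.

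The eIF3 genes ranged from 193 ± 20.2 TPM for Eif3k to 7.28 ± 1.4 TPM for Eif3g. The alpha subunit of eIF2, whose phosphorylation is the switch of the integrated stress response, is encoded by Eif2s1 and stood at 83.0 ± 9.69 TPM, and the 5 eIF2B genes ranged from 42.8 ± 4.98 TPM for Eif2b1 to 11.7 ± 10.6 TPM for Eif2b4. All 4 kinase genes were low: 9.79 ± 1.1 TPM for Eif2ak1 (HRI), 4.15 ± 0.811 TPM for Eif2ak3 (PERK), 2.41 ± 0.389 TPM for Eif2ak4 (GCN2) and 1.61 ± 0.464 TPM for Eif2ak2 (PKR). At the bottom were the translational repressors Eif4ebp2 with 1.57 ± 0.323 TPM and Eif4ebp1 with 0.930 ± 0.720 TPM, and the large scaffold Eif4g1 was also low with 3.13 ± 1.29 TPM.

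The first question was how the transcripts of initiation factor genes divide between IP and input. For each animal, the log2 level in the IP was taken minus that in the input, on CPM scaled by TMM over all 24 libraries, and tested with the animal as a block by edgeR's quasi-likelihood test across 18300 genes (Benjamini-Hochberg). Over all groups 41 of the 50 genes passed an adjusted p of 0.05, 16 higher and 25 lower in the IP. That is 82% of the genes, against 55.9% of all tested genes, 28.2% higher and 27.7% lower. Without vehicle animal 4 the count was 44, 17 higher and 27 lower, against 58.1% of all genes, and without vehicle animals 3 and 4 it was 42, against 52.9%. Apart from Eif4ebp1, each of the 50 genes had a mean count of at least 226, whereas the filter for tested genes was set at 10. The shares were not matched for counts, and the part of read depth in their difference was not tested. The median log2 ratio of the 50 was −0.14, against 0.00 for all tested genes. 8 genes lay above 0 in all 12 animals and 12 below 0 in all 12, against 13.4% and 15.7% of all genes. Over the animals other than vehicle animal 4 these counts were 10 and 16, against 16.0% and 17.8%, and without vehicle animals 3 and 4 they were 10 and 17, against 16.5% and 18.1%. These ratios are relative to the TMM scale, on which the median of all genes is near 0, and they do not show how much m6A a transcript carries.

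The direction of many of these ratios depends on that scale. On log2(TPM + 0.1), tested with limma, the median of all genes was 0.55, and 37 of the 50 genes passed, 34 higher and 3 lower. Of all tested genes 68.2% passed there, 64.2% higher and 4.03% lower. With a pseudocount of 1 the median was 0.36 and the split was again 34 higher and 3 lower, against 64.6% and 4.01% of all genes. Read against the median of all genes on the TPM + 0.1 scale, 39 of the 41 genes kept their side, the exceptions being Eif4g2 at 0.54 and Eif2b4 at 0.52. On TPM + 1, 33 of 41 kept it, all 16 higher genes and 17 of the 25 lower ones. The lower genes Eif1a, Eif2a, Eif2ak1, Eif2b1, Eif2b3, Eif3e, Eif3m and Eif4b lay above that median there, by 0.02 (Eif2ak1) to 0.14 (Eif4b). Higher and lower below therefore mean above or below the typical transcript on the TMM scale, and for the genes just named the side depends on the scale. The genes that were lower on both scales in absolute terms were Eif5, Eif5b, Eif6, Eif3f, Eif3j2, Eif4e3 and Eif2b5, and of these Eif5, Eif5b and Eif6 passed on the TPM + 0.1 scale. Every other gene called lower stood above 0 there, and for those named below that value is given beside the ratio.

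**Figure D1:**
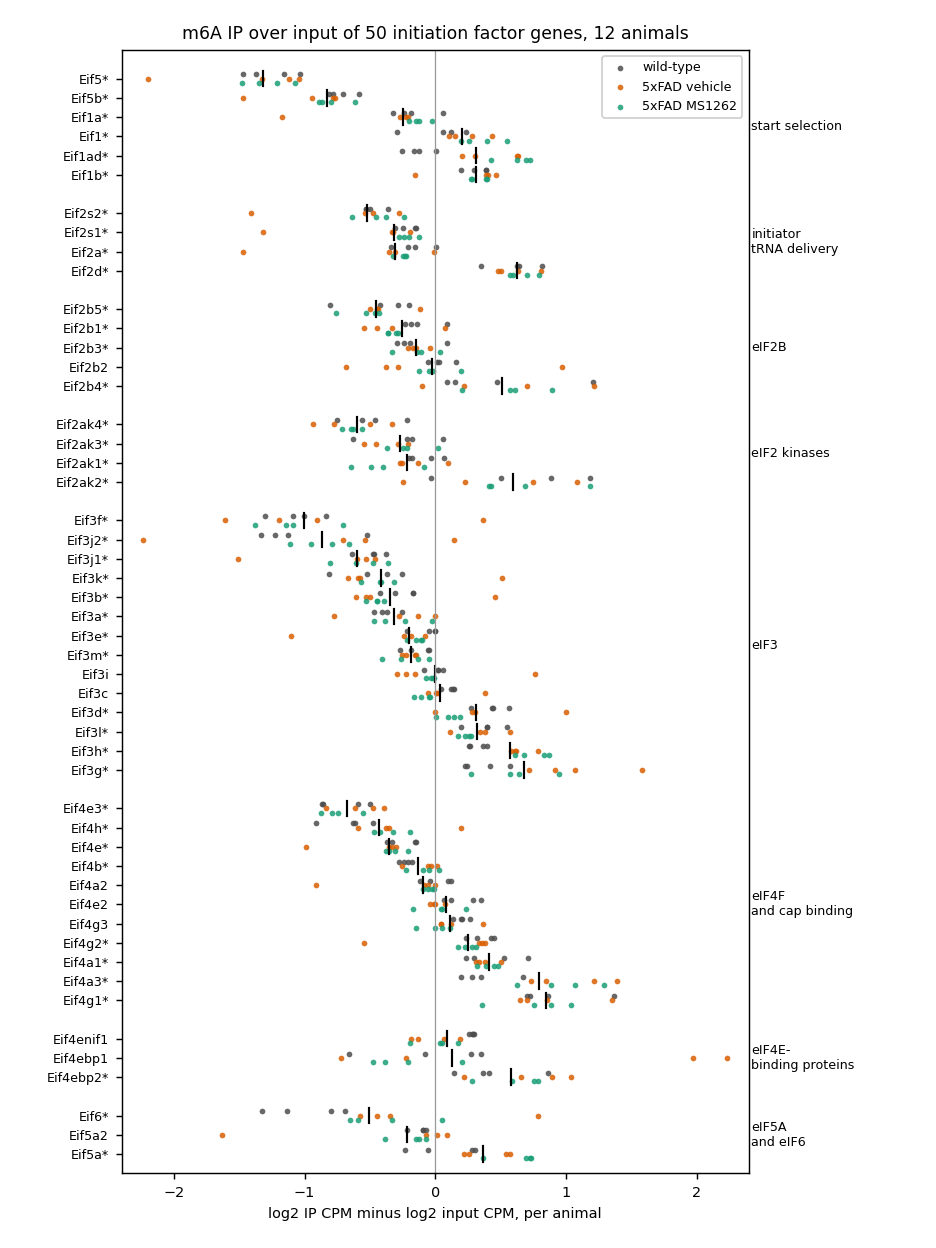
Log2 IP minus input CPM of each of the 50 genes in each of the 12 animals (points, coloured by group), grouped by role; the black tick is the fitted mean over groups and an asterisk marks adjusted p below 0.05 in edgeR's quasi-likelihood test. Eif5 lies below −1 in every animal and Eif4g1 above 0 in every animal, and Eif3f lies below 0 in every animal but vehicle animal 4.

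Among the genes of start codon selection, 3 were higher and 3 lower. Eif5 (chr12:111538101-111546753) had the lowest ratio of all 50 genes. Its input levels were 794, 776, 976 and 1065 CPM in the wild-type animals, 872, 734, 743 and 594 CPM in the vehicle animals and 687, 912, 885 and 801 CPM in the MS1262 animals. Its IP levels were 356, 378, 378 and 383 CPM in the wild-type animals, 349, 357, 343 and 130 CPM in the vehicle animals and 326, 327, 348 and 346 CPM in the MS1262 animals. Every IP level lay below every input level, and vehicle animal 4 was the lowest in both. The log2 ratio was −1.31 (SE 0.08, adjusted p = 1.41e-09), a 2.49-fold lower level in the IP, and −1.23 without vehicle animal 4. Eif5b, the GTPase of subunit joining, had 216, 172, 200 and 222 CPM in the wild-type animals, 246, 207, 221 and 143 CPM in the vehicle animals and 198, 241, 255 and 228 CPM in the MS1262 animals in the input. In the IP it had 132, 115, 114 and 130 CPM in the wild-type animals, 128, 121, 129 and 51.6 CPM in the vehicle animals and 129, 130, 140 and 131 CPM in the MS1262 animals. The IP levels again lay below all input levels, with a log2 ratio of −0.83 (SE 0.06, adjusted p = 6.75e-09). Of the remaining genes, Eif1b was higher at 0.31 (SE 0.06, adjusted p = 1.58e-04), Eif1ad at 0.31 (SE 0.06, adjusted p = 3.40e-04) and Eif1 at 0.21 (SE 0.06, adjusted p = 0.00533), whereas Eif1a was lower at −0.25 (SE 0.07, adjusted p = 0.00843, and 0.41 on TPM + 0.1). Eif5b overlaps Rev1 and Eif1ad overlaps Banf1, and whether the counting used strand is not given in the sources used here.

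In initiator tRNA delivery, the eIF2 subunit genes Eif2s1 and Eif2s2 and the alternative factor Eif2a were lower, and Eif2d, which can deliver tRNA without GTP, was higher. Eif2d had per-animal log2 ratios of 0.62, 0.35, 0.82 and 0.64 in the wild-type animals, 0.81, 0.63, 0.48 and 0.50 in the vehicle animals and 0.60, 0.57, 0.79 and 0.70 in the MS1262 animals. All 12 animals lay above 0 and the 3 groups overlapped, with a log2 ratio of 0.62 (SE 0.06, adjusted p = 5.29e-08). The ratio was −0.52 (SE 0.08, adjusted p = 1.95e-05, and 0.11 on TPM + 0.1) for Eif2s2 and −0.32 (SE 0.08, adjusted p = 0.00199, and 0.19 on TPM + 0.1) for Eif2s1. Both were lowest in vehicle animal 4, and without it Eif2s1 was at −0.24.

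Of the 5 eIF2B genes, 1 was higher, 3 were lower and Eif2b2 did not pass. Eif2b5, the catalytic subunit, had a ratio of −0.45 (SE 0.06, adjusted p = 7.49e-06). Eif2b4 was at 0.51 (SE 0.12, adjusted p = 0.00129) with animals from −0.10 to 1.21, so its spread was wide. With limma on TPM + 0.1 it stood at 0.52 and did not pass (adjusted p = 0.196). Among the eIF2 kinases, Eif2ak4, the sensor of uncharged tRNA, was lower. Its per-animal log2 ratios were −0.21, −0.56, −0.46 and −0.75 in the wild-type animals, −0.93, −0.78, −0.50 and −0.33 in the vehicle animals and −0.63, −0.56, −0.71 and −0.65 in the MS1262 animals. All 12 animals lay below 0, with a log2 ratio of −0.60 (SE 0.07, adjusted p = 2.56e-06, and 0.21 on TPM + 0.1). Eif2ak2, the sensor of double-stranded RNA, was higher at 0.59 (SE 0.12, adjusted p = 5.93e-04), with 0.51, −0.04, 1.19 and 0.88 in the wild-type animals, 0.23, 1.08, 0.75 and −0.24 in the vehicle animals and 0.43, 0.69, 1.18 and 0.41 in the MS1262 animals. Wild-type animal 2 and vehicle animal 4 were the only animals under 0. Eif2ak3 and Eif2ak1 were lower by less, at −0.27 (SE 0.07, adjusted p = 0.00300, and 0.36 on TPM + 0.1) and −0.21 (SE 0.06, adjusted p = 0.00469, and 0.42 on TPM + 0.1).

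The 14 eIF3 genes split most widely, with 4 higher, 8 lower and 2 that did not pass. Eif3f had 25.8, 21.7, 29.7 and 26.3 CPM in the wild-type animals, 32.7, 28.3, 21.6 and 26.7 CPM in the vehicle animals and 27.9, 27.7, 28.4 and 37.8 CPM in the MS1262 animals in the input. In the IP it had 14.4, 10.8, 12 and 12.4 CPM in the wild-type animals, 10.7, 12.3, 11.5 and 34.3 CPM in the vehicle animals and 17.1, 13, 12.8 and 14.5 CPM in the MS1262 animals. Vehicle animal 4 was the only one with more in the IP. The log2 ratio was −1.0 (SE 0.12, adjusted p = 2.30e-06) and −1.13 without that animal. Eif3j2, the less expressed copy of the accessory subunit gene, was at −0.87 (SE 0.13, adjusted p = 2.25e-05) with animals from −2.24 to 0.15, and Eif3j1 at −0.60 (SE 0.08, adjusted p = 3.56e-06, and 0.03 on TPM + 0.1). On the higher side stood Eif3g, an RNA-binding subunit, with 7.90, 8.31, 7.85 and 5.80 CPM in the wild-type animals, 4.86, 4.98, 7.51 and 6.57 CPM in the vehicle animals and 7.29, 6.18, 7.93 and 6.23 CPM in the MS1262 animals in the input. In the IP Eif3g had 9.24, 9.85, 10.5 and 8.65 CPM in the wild-type animals, 10.2, 9.40, 12.4 and 19.6 CPM in the vehicle animals and 11.4, 11.9, 9.58 and 9.29 CPM in the MS1262 animals. Each of the 12 animals had more in the IP, most of all vehicle animal 4. The log2 ratio was 0.68 (SE 0.09, adjusted p = 3.62e-06) and 0.62 without it. Eif3h was next with 0.57 (SE 0.05, adjusted p = 2.31e-08), followed by Eif3l and the cap-binding subunit Eif3d with 0.32 (SE 0.05, adjusted p = 4.60e-05) and 0.31 (SE 0.07, adjusted p = 0.00109). The scaffold subunit Eif3a and the octamer subunit Eif3e were lower, at −0.31 (SE 0.06, adjusted p = 5.23e-04, and 0.05 on TPM + 0.1) and −0.20 (SE 0.07, adjusted p = 0.0265, and 0.43 on TPM + 0.1). Eif3e was at −0.13 without vehicle animal 4.

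The 11 genes of eIF4F and cap binding held the highest ratios, with 4 higher, 4 lower and 3 that did not pass. Eif4g1 (chr16:20672720-20692883), the main scaffold, had 8.54, 9.17, 6.95 and 8.15 CPM in the wild-type animals, 9.04, 8.73, 7.60 and 8.53 CPM in the vehicle animals and 9.80, 12.8, 8.28 and 7.47 CPM in the MS1262 animals in the input. In the IP Eif4g1 had 13.9, 15.2, 12.6 and 21.0 CPM in the wild-type animals, 14.2, 14.2, 13.7 and 21.7 CPM in the vehicle animals and 16.5, 16.5, 17.0 and 13.8 CPM in the MS1262 animals. The IP exceeded the input in each animal, and wild-type animal 4 and vehicle animal 4 were the highest IPs. The log2 ratio was 0.85 (SE 0.09, adjusted p = 2.97e-07), a 1.80-fold higher level in the IP. Eif4a3, the helicase of the exon junction complex, had a ratio of 0.80 (SE 0.07, adjusted p = 6.97e-08) and was above 0 in all 12 animals. Eif4a1 was also higher at 0.41 (SE 0.05, adjusted p = 5.62e-06), and Eif4a2 did not pass at −0.10 (SE 0.07, adjusted p = 0.247, and 0.60 on TPM + 0.1), or −0.02 without vehicle animal 4. Eif4e3, a cap-binding relative of eIF4E, was lower at −0.68 (SE 0.06, adjusted p = 7.36e-08), and it had −0.50, −0.59, −0.86 and −0.86 in the wild-type animals, −0.47, −0.84, −0.61 and −0.39 in the vehicle animals and −0.74, −0.55, −0.79 and −0.87 in the MS1262 animals. All 12 animals lay below 0 and the groups overlapped. Eif4h and Eif4b, the cofactors of eIF4A, and Eif4e were lower too, at −0.43 (SE 0.07, adjusted p = 2.17e-05, and 0.19 on TPM + 0.1), −0.13 (SE 0.05, adjusted p = 0.0261, and 0.51 on TPM + 0.1) and −0.35 (SE 0.06, adjusted p = 8.89e-05, and 0.33 on TPM + 0.1). Eif4g2 was higher at 0.25 (SE 0.07, adjusted p = 0.00591), whereas the scaffold paralog Eif4g3 at 0.12 (SE 0.05, adjusted p = 0.0534) and the repressive cap binder Eif4e2 at 0.08 (SE 0.05, adjusted p = 0.174) did not pass.

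Among the repressors that bind eIF4E, Eif4ebp2, the main 4E-binding protein of the brain, was higher at 0.58 (SE 0.09, adjusted p = 2.05e-05). Its per-animal log2 ratios were 0.14, 0.86, 0.41 and 0.36 in the wild-type animals, 0.66, 1.04, 0.22 and 0.89 in the vehicle animals and 0.28, 0.79, 0.59 and 0.76 in the MS1262 animals. All 12 were above 0. Eif4ebp1 rested on few counts and ranged from −0.72 to 2.23, and its ratio of 0.13 (SE 0.28, adjusted p = 0.718) turned to −0.05 without vehicle animal 4. Eif4enif1, the nuclear importer of eIF4E, did not pass at 0.09 (SE 0.05, adjusted p = 0.155). Eif6, which keeps the large ribosomal subunit from joining early, was lower at −0.51 (SE 0.11, adjusted p = 6.59e-04) and Eif5a, the hypusine-bearing factor, higher at 0.37 (SE 0.06, adjusted p = 7.78e-05). Its paralog Eif5a2 did not pass at −0.21 (SE 0.11, adjusted p = 0.101, and 0.40 on TPM + 0.1), and without vehicle animal 4 it passed at −0.10 (adjusted p = 0.0296). For Eif6 the transcripts counted in the IP differed in length: counts per unit of TPM, which follow the length of the transcripts assigned, were higher in the IP than in the input in 11 of 12 animals, with a median log2 difference of 0.97. For Eif4g2, Eif4a3 and Eif2b5 that shift was 0.34, 0.31 and 0.22, above 0 in all 12 animals.

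**Figure D2:**
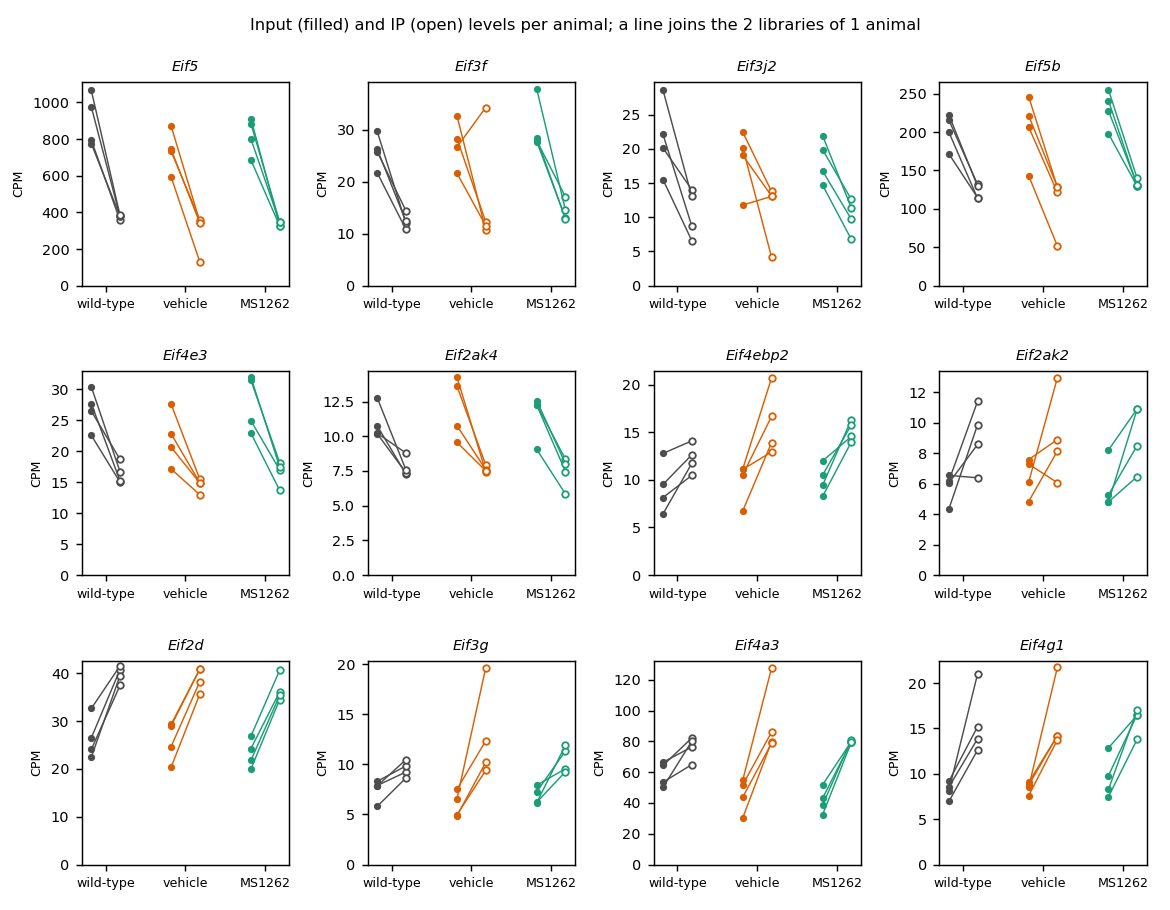
CPM (linear axes from 0) in the input (filled) and the IP (open) of each animal for the 6 genes with the lowest and the 6 with the highest log2 ratio that passed; a line joins both libraries of 1 animal. Lines of Eif5 and Eif5b fall in every animal and those of Eif4g1, Eif2d and Eif4ebp2 rise in every animal.

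Within each group alone fewer genes passed, with similar splits. In wild-type animals 26 of 50 passed, 12 higher and 14 lower, against 33% of all tested genes, 16.8% higher and 16.2% lower. Among vehicle animals 28 passed, 12 higher and 16 lower, against 39.7%, 19.1% higher and 20.6% lower. Without vehicle animal 4 this count was 34, 14 higher and 20 lower, against 39.7%, and without vehicle animals 3 and 4 it was 30, 12 and 18, against 31.8%. Among MS1262 animals 29 passed, 14 higher and 15 lower, against 38.1%, 20.5% higher and 17.6% lower. Eif5 was the lowest gene in each group, at −1.26, −1.41 and −1.28 in that order. Eif4g1 was the highest in wild-type animals at 0.92, Eif3g in vehicle animals at 1.06 and Eif4a3 in MS1262 animals at 0.97. The place of Eif3g rested on vehicle animal 4, since over the other 3 vehicle animals its mean ratio was 0.90 and that of Eif4a3 0.99. Without wild-type animal 3 or 4 the wild-type count fell from 26 to 15 or 17, against 23.7% or 25.1% of all genes. On TPM + 0.1 the splits were 29 higher and 3 lower in wild-type, 30 and 2 in vehicle and 27 and 2 in MS1262 animals. Of all genes 42.7%, 51.3% and 46.8% were higher there and 2.67%, 1.86% and 1.75% lower.

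Neither length nor abundance ordered the genes closely. For the 49 genes with at least 10 counts in every input, transcript length was read from the mean log2 counts per unit of TPM. Spearman's rho of the log2 ratio with that length was −0.24, against 0.04 across 13993 tested genes. With TPM across the 50 genes rho was −0.14, against −0.25 across all. These are descriptions across genes that share libraries.

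Neighbouring steps of translation were looked at in the same test, in which 28.2% of all tested genes were higher and 27.7% lower. Of 13 elongation and release factor genes 6 were higher and 5 lower, with 1.02 (SE 0.07, adjusted p = 1.53e-09) for the translocase Eef2 and 0.88 (SE 0.10, adjusted p = 7.12e-07) for the neuronal elongation factor Eef1a2, −0.70 (SE 0.07, adjusted p = 1.16e-07) for Eef1e1 and −0.46 (SE 0.06, adjusted p = 5.17e-06) for the release factor Etf1. Of 19 partners of the cap, the poly(A) tail and scanning 2 were higher and 11 lower, among them the eIF4A inhibitor Pdcd4 with −0.87 (SE 0.07, adjusted p = 1.57e-08), the poly(A)-binding Pabpc1 with −0.51 (SE 0.05, adjusted p = 8.15e-08) the scanning helicase Dhx29 with −0.58 (SE 0.06, adjusted p = 1.83e-07) and the poly(A)-binding protein inhibitor Paip2b with −0.48 (SE 0.05, adjusted p = 2.64e-07). Of 14 mTOR and MNK genes 7 were higher and 4 lower, with 1.49 (SE 0.07, adjusted p = 6.08e-11) for Mlst8 and 0.86 (SE 0.06, adjusted p = 6.99e-09) for Rptor, both parts of the mTOR complex, 0.83 (SE 0.06, adjusted p = 1.08e-08) for the eIF4E kinase gene Mknk1 and 1.22 (SE 0.15, adjusted p = 2.56e-06) for the mTOR repressor Ddit4. Of 13 tested integrated stress response genes 6 were higher and 3 lower, led by the Eif2ak4 activator Gcn1 with 1.4 (SE 0.11, adjusted p = 1.99e-08), followed by the stress factor Ddit3 with 0.78 (SE 0.08, adjusted p = 5.07e-07) and Sesn2 with 0.95 (SE 0.15, adjusted p = 5.15e-05), while the chaperone gene Dnajc3 stood at −0.55 (SE 0.07, adjusted p = 2.90e-06). Median log2 ratios of these lists were 0.10, −0.19, 0.26 and 0.12. On TPM + 0.1 the lower genes named here stood at 0.08 (Eef1e1), 0.16 (Etf1), −0.24 (Pdcd4), 0.10 (Pabpc1), 0.05 (Dhx29), 0.29 (Paip2b) and 0.07 (Dnajc3), against the median of 0.55. The higher ones named here lay above that median, by 0.83 (Sesn2) to 1.43 (Mlst8).

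The second question was whether expression of these genes differs between groups. It did not pass the test for any of the 50 genes in any of the 3 comparisons. With edgeR's quasi-likelihood test on the 12 inputs across 17693 genes, 0 of 50 passed in vehicle against wild-type mice (1.57% of all genes), 0 of 50 in MS1262 against vehicle (0% of all genes) and 0 of 50 in MS1262 against wild-type mice (1.3%). At an unadjusted p below 0.05 there were 3, 1 and 11 genes, which is to be read against 12.8%, 5.67% and 14.3% of all genes. DESeq2 also called 0 in each. Medians of the 50 log2 changes were −0.05, −0.02 and −0.05, against 0.01, −0.01 and 0.00 for all genes, and the median SE was 0.11. No gene changed by 2-fold or more in either direction.

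In vehicle against wild-type mice the smallest p was that of Eif4h, a cofactor of eIF4A. Its input levels were 82.7, 81.1, 103 and 86.5 CPM in the wild-type animals, 69.1, 67.9, 70.2 and 76.9 CPM in the vehicle animals and 80.4, 77.0, 71.7 and 73.6 CPM in the MS1262 animals. All 4 vehicle animals lay below all 4 wild-type animals, with a log2 change of −0.30 (SE 0.10, adjusted p = 0.158) and an interval of −0.49 to −0.12. Eif2b3, a subunit of eIF2B, followed with −0.27 (SE 0.10, adjusted p = 0.259) and Eif4e with −0.18 (SE 0.08, adjusted p = 0.380). In all, 4 of the 50 genes did not overlap between these groups, Eif4enif1 above and Eif1a, Eif4b and Eif4h below, while 7.16% of all tested genes did not overlap. Without vehicle animal 4 the count was 8, against 12.2%, and without vehicle animals 3 and 4 it was 15, against 22.4%.

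In MS1262 against vehicle mice the smallest p was that of Eif3k, a subunit of eIF3, with 106, 129, 114 and 103 CPM in the wild-type animals, 120, 105, 117 and 130 CPM in the vehicle animals and 107, 96.2, 106 and 90.6 CPM in the MS1262 animals. The groups overlapped, since MS1262 animal 1 lay above vehicle animal 2, and the log2 change was −0.24 (SE 0.10, adjusted p = 0.848). Eif4e3 had 0.33 (SE 0.16, adjusted p = 0.863) and Eif3i −0.15 (SE 0.07, adjusted p = 0.863). Eif3i was the only gene whose groups did not overlap, against 3.37% of all genes. Eif4h joined it without vehicle animal 4, 2 genes against 5.83%, and without vehicle animals 3 and 4 there were 6, against 11.9%.

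In MS1262 against wild-type mice the smallest p was that of Eif1ad, a gene with an eIF1A-like domain, with 20.3, 21.6, 20.4 and 17.8 CPM in the wild-type animals, 14.3, 17.7, 18 and 17.7 CPM in the vehicle animals and 16.7, 12.7, 12.1 and 17.0 CPM in the MS1262 animals. All 4 MS1262 animals lay below all 4 wild-type animals, with a log2 change of −0.44 (SE 0.14, adjusted p = 0.161). Eif1a followed with −0.23 (SE 0.08, adjusted p = 0.178) and Eif4e with −0.24 (SE 0.08, adjusted p = 0.199). Here 10 of the 50 genes did not overlap, against 10.1% of all genes. Eif3b and Eif4g3 were above, and Eif1a, Eif1ad, Eif2s1, Eif3h, Eif3i, Eif4a2, Eif4e and Eif4h were below. This comparison and the first share the wild-type animals.

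The 4 kinases of eIF2 showed log2 changes in vehicle against wild-type mice of −0.04 for Eif2ak1, 0.17 for Eif2ak2, 0.25 for Eif2ak3 and 0.14 for Eif2ak4, with SEs of 0.10 to 0.22. Among the other lists, 0 elongation, cap partner and mTOR genes passed for expression in any of the 3 comparisons, at medians of the list between −0.07 and 0.02, and the stress response list held a pair that did. Impact, which restrains Eif2ak4 activation, was lower at −0.64 (SE 0.15, adjusted p = 0.0483) in vehicle and −0.73 (SE 0.15, adjusted p = 0.0277) in MS1262 against wild-type mice. Asns, the asparagine synthetase gene, was lower at −0.34 (SE 0.08, adjusted p = 0.0398) in the latter. The part of the microglial marker sums given above in these values was not tested.

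**Figure D3:**
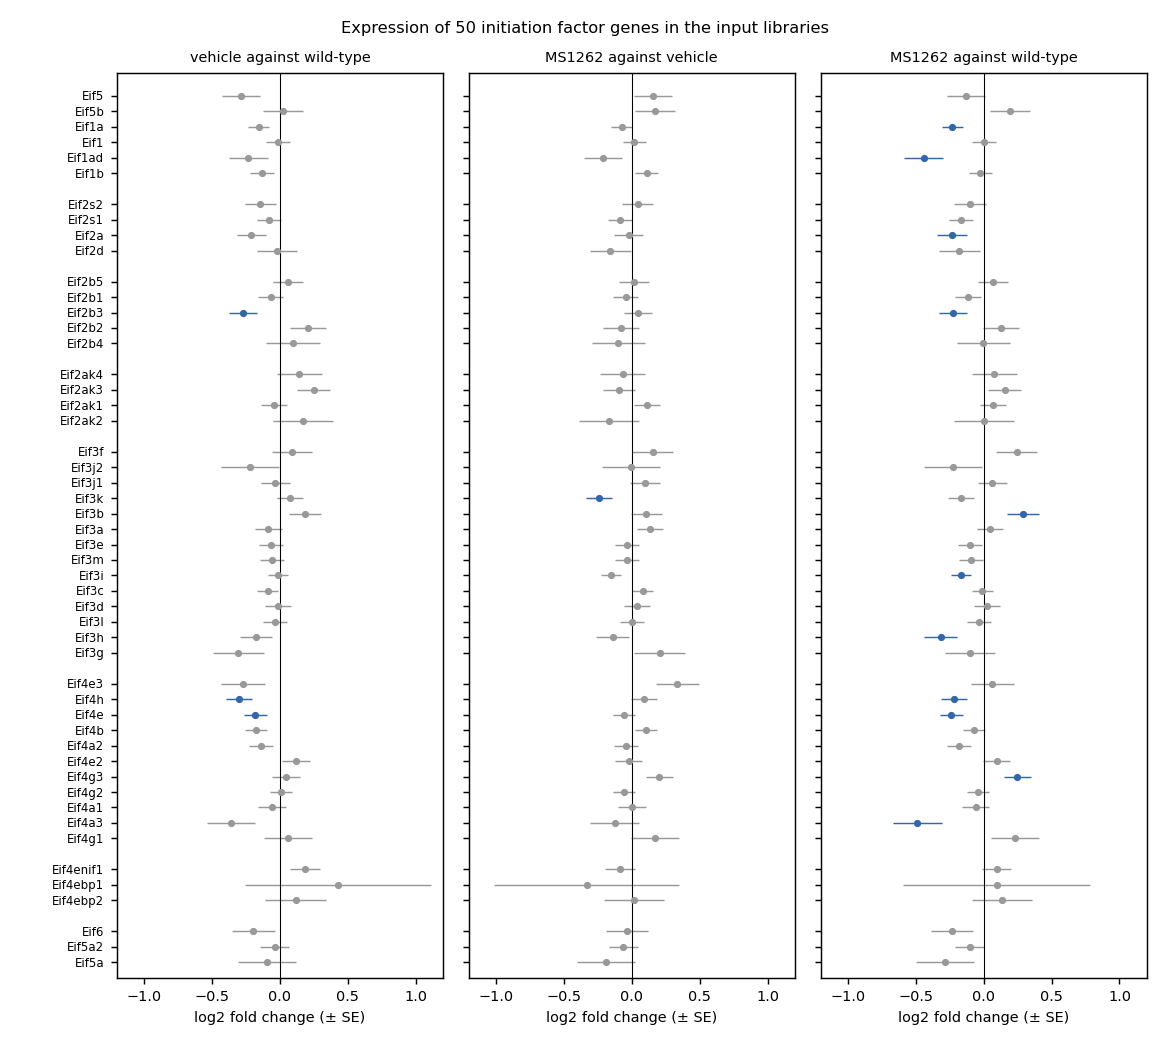
Log2 fold change with its SE (bars) of each of the 50 genes in the 12 input libraries, from edgeR's quasi-likelihood fit, for the 3 comparisons; blue marks an unadjusted p below 0.05 and grey the rest. All changes lie between −0.49 and 0.43, and 0 pass an adjusted p of 0.05.

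Levels in the 12 IP libraries alone, which mix expression and enrichment, gave 0 of 50 genes past the threshold in vehicle against wild-type mice (0.537% of 16941 tested genes), in MS1262 against vehicle mice (0%) and in MS1262 against wild-type mice (0.673%). At an unadjusted p below 0.05 there were 5, 0 and 3 genes, against 10.9%, 3.54% and 11.4% of all genes, and DESeq2 called 0 in each. The smallest p was that of Eif6 in the first with 0.80 (SE 0.32, adjusted p = 0.400), of Eif3k in the second with −0.48 (SE 0.26, adjusted p = 0.995) and of Eif2b1 in the third with −0.33 (SE 0.12, adjusted p = 0.269). Eif6 had 11.0, 9.85, 8.53 and 10.6 CPM in the wild-type animals, 12.1, 12.2, 10.6 and 35.9 CPM in the vehicle animals and 12.5, 13.4, 12 and 12.9 CPM in the MS1262 animals in the IP. Vehicle animal 4 stood far above all other animals. Without that animal the value was 0.24 (adjusted p = 0.493) for Eif6 in the first comparison and −0.04 (adjusted p = 0.962) for Eif3k in the second. Without it 3 genes passed in MS1262 against wild-type mice, all lower: Eif2b1, Eif3d and Eif2a, the last at −0.33, while 3.97% of all genes passed, 1.47% lower. With vehicle animals 3 and 4 both left out only Eif1 passed, at 0.33, against 3.57% of all genes.

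The third question was whether IP over input differs between groups, tested as the difference of the log2 ratios in the fit of all 24 libraries. A single gene passed, Eif1ad in MS1262 against wild-type mice, so 1 of 50 genes was called, higher, against 1.24% of 18300 tested genes in either direction and 1.22% higher. In vehicle against wild-type mice 0 of 50 passed (0.989% of all genes) and in MS1262 against vehicle mice 0 of 50 (0%). At an unadjusted p below 0.05 there were 8 genes in vehicle against wild-type, 1 in MS1262 against vehicle and 7 in MS1262 against wild-type mice, against 11.7%, 2.37% and 11.1% of all genes.

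Eif1ad (chr19:5366813-5371518) had log2 ratios of −0.16, 0.01, −0.26 and −0.12 in the wild-type animals, 0.63, 0.20, 0.30 and 0.63 in the vehicle animals and 0.63, 0.72, 0.69 and 0.43 in the MS1262 animals. All 8 5xFAD animals lay above all 4 wild-type animals, and the vehicle and MS1262 animals overlapped. Its levels were 18.1, 21.7, 17.1 and 16.3 CPM in the wild-type animals, 22.0, 20.4, 22.2 and 27.4 CPM in the vehicle animals and 25.9, 21.0, 19.5 and 22.9 CPM in the MS1262 animals in the IP. The IP groups overlapped, and the inputs, given above, were lower in the MS1262 animals. The difference was 0.75 (SE 0.15, adjusted p = 0.0195) in MS1262 against wild-type mice and 0.57 (SE 0.15, adjusted p = 0.0976) in vehicle against wild-type mice. Between MS1262 and vehicle mice it was 0.18, with an interval of −0.11 to 0.47. The call in MS1262 against wild-type mice was lost without wild-type animal 1, 3 or 4 or MS1262 animal 2 or 3, with adjusted p of 0.0809, 0.0545, 0.0729, 0.0703 and 0.0815, and on both TPM scales at 0.0683 and 0.0685. It was also lost with the replicate number added as a block within IP and input, at 0.0662, and without the animal block, at 0.481, which makes 9 of 20 alternatives. Over all alternatives its adjusted p in this comparison ranged from 0.000812 to 0.481 and its difference from 0.71 to 0.85. In vehicle against wild-type mice Eif1ad passed in 3 of 20 alternatives. These were limma on TPM + 1 at 0.83 (adjusted p = 0.02975) and on TPM + 0.1 at 0.91 (adjusted p = 0.0317), and DESeq2 at 0.58 (adjusted p = 0.0195).

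The next genes did not pass. Eif3h had 0.27, 0.26, 0.40 and 0.37 in the wild-type animals, 0.61, 0.62, 0.58 and 0.79 in the vehicle animals and 0.84, 0.87, 0.61 and 0.68 in the MS1262 animals. Its 8 5xFAD animals all lay above its 4 wild-type animals, with a difference of 0.43 (SE 0.12, adjusted p = 0.0931) in MS1262 and 0.33 (SE 0.12, adjusted p = 0.256) in vehicle against wild-type mice. The input levels of Eif3h were lower in every MS1262 animal than in any wild-type animal, and the part of the input in that difference was not tested. Eif4a3 had 0.20, 0.35, 0.67 and 0.28 in the wild-type animals, 1.39, 0.85, 0.73 and 1.22 in the vehicle animals and 0.62, 0.89, 1.07 and 1.29 in the MS1262 animals. The vehicle animals lay above the wild-type animals and MS1262 animal 1 fell below wild-type animal 3, with 0.67 (SE 0.18, adjusted p = 0.0948) in vehicle and 0.59 (SE 0.18, adjusted p = 0.131) in MS1262 against wild-type mice. Its input levels were 66.5, 64.4, 50.2 and 53.5 CPM in the wild-type animals, 30.5, 43.8, 51.9 and 55.0 CPM in the vehicle animals and 51.8, 43.1, 38.7 and 32.5 CPM in the MS1262 animals, and its IP levels stayed between 64.9 and 86.0 CPM in all animals but vehicle animal 4. Eif5a had −0.05, −0.23, 0.28 and 0.30 in the wild-type animals, 0.57, 0.54, 0.26 and 0.22 in the vehicle animals and 0.36, 0.73, 0.70 and 0.74 in the MS1262 animals, with 0.56 (SE 0.15, adjusted p = 0.0954) in MS1262 against wild-type mice. All MS1262 animals were above the wild-type animals, and the vehicle animals overlapped both groups. Without vehicle animal 4, Eif3h, Eif5a and Eif4a3 joined Eif1ad past the threshold in MS1262 against wild-type mice, at adjusted p of 0.00517, 0.00939 and 0.0251, while 4.62% of all genes passed. DESeq2 called Eif1ad, Eif3h and Eif5a there, against 2.81% of all genes, and Eif1ad and Eif4a3 in vehicle against wild-type mice, against 2.75%. Without vehicle animals 3 and 4 the latter comparison called Eif4a3 at an adjusted p of 0.0324, against 1.76% of all genes.

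Eif6 and Eif3g had the next smallest p in vehicle against wild-type mice without passing, at 0.83 (SE 0.27, adjusted p = 0.192) and 0.70 (SE 0.21, adjusted p = 0.165). With edgeR's test and no low-count filter Eif6 passed at 0.86 (adjusted p = 0.00622), and so did Eif4a3 at 0.70 (adjusted p = 0.00448). Eif6 had −0.80, −1.14, −1.33 and −0.69 in the wild-type animals, −0.34, −0.45, −0.58 and 0.79 in the vehicle animals and −0.59, 0.05, −0.33 and −0.65 in the MS1262 animals. The wild-type animals were the 4 lowest of the 12, and vehicle animal 4 was the highest. The other 3 vehicle animals had a mean of −0.46 ± 0.12 (SD). Groups of IP over input did not overlap for 6 of 50 genes in vehicle against wild-type mice, 5 above and Eif4enif1 below, against 7.56% of all genes. Without vehicle animal 4 this held for 14 genes, 7 above and 7 below, against 12.8%, and without vehicle animals 3 and 4 for 19, against 21.3%. In MS1262 against vehicle mice it held for Eif1a alone, against 2.24%, for 5 genes without vehicle animal 4, against 7.41%, and for 9 without vehicle animals 3 and 4, against 15.7%. In MS1262 against wild-type mice it held for 10 genes, against 10.5%: Eif1ad, Eif3h, Eif4h, Eif5a and Eif6 above, and Eif2b1, Eif3c, Eif3d, Eif4enif1 and Eif4g3 below. In the same comparison the inputs of Eif1ad, Eif3h and Eif4h lay below all wild-type inputs and those of Eif4g3 above them. The inputs of the others overlapped, and the part of the input in these ratios was not tested. In MS1262 against vehicle mice the smallest p was that of Eif3g at −0.46 (SE 0.21, adjusted p = 1.0), which was −0.30 without vehicle animal 4, and the median SE of the 50 differences was 0.17.

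**Figure D4:**
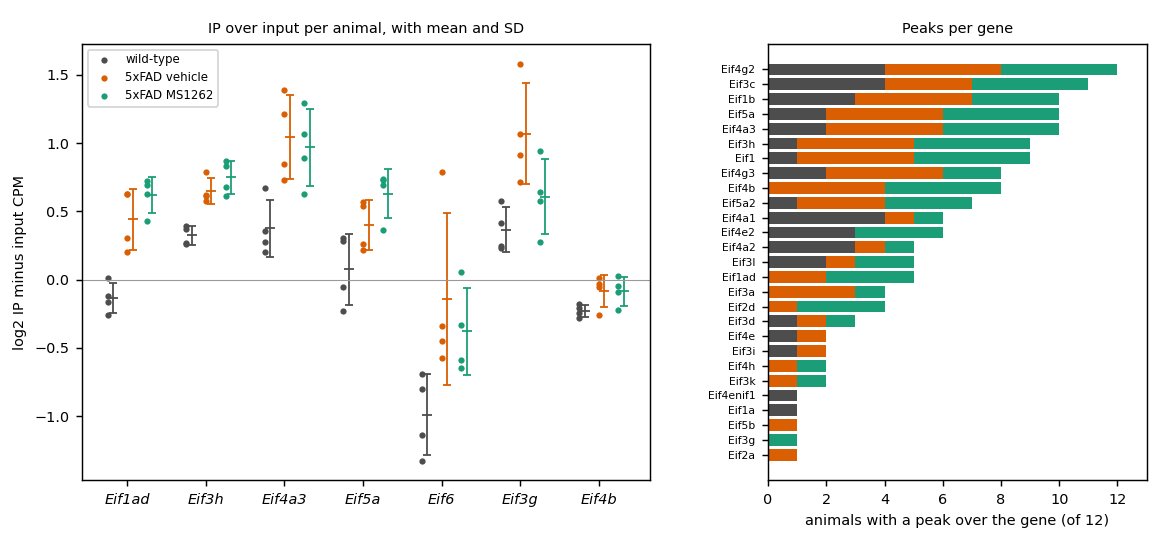
Left, log2 IP minus input CPM per animal (points) with mean and SD (bars) for 7 genes in the 3 groups; right, the number of animals with a deposited peak over each gene that had any, stacked by group. For Eif1ad and Eif3h the 8 5xFAD animals lie above the 4 wild-type animals, and Eif4b has peaks in 8 5xFAD animals and in 0 wild-type animals.

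The deposited peaks were called by the authors in each animal with MACS2 at a lenient q cutoff of 0.5, and their fold enrichments over the local background are the authors' values. A peak lay over 27 of the 50 genes in at least 1 animal, which is 54.0% against 34.7% of 16881 tested genes with a position. There were 27 such genes without vehicle animal 4, against 31.3%, and without vehicle animals 3 and 4 26, against 30.8%. Eif4g2 alone had one in all 12 animals, 2.0% against 4.01%, and remained the only one without those animals. Its 88 peaks reached a fold of 6.60. Eif3c had peaks in 11 animals, Eif1b, Eif5a and Eif4a3 in 10, and Eif1 and Eif3h in 9. Eif5, Eif4g1 and Eif3f, at the ends of IP over input, had none, and neither had Eif2ak2, Eif2ak4, Eif4e3, Eif4ebp2 and Eif6. The labels' protocols name no step that breaks the RNA up ahead of the IP, so positions within a transcript are those of reads. The part of read depth in the share of genes with a peak was not tested.

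Positions recurred between animals. In Eif1 the summits of 9 animals lay 175 to 225 bases from the annotated start, at folds of 2.76 to 5.02, in 1 wild-type, 4 vehicle and 4 MS1262 animals. In Eif4a3 9 animals had a summit 159 to 224 bases from the start and 10 had one 11224 to 11480 bases from it, 96.1 to 98.3% of the way along the gene. In Eif3c 11 animals had summits 51 to 353 bases from the start. Eif1b had summits 72 to 283 bases from the start in 9 animals. Distances are genomic and count introns.

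Peaks of Eif4b (chr15:102073773-102097173), a cofactor of the helicase, were found in all 8 5xFAD animals and in no wild-type animal. This pattern was met by 1 of the 50 genes and by 0.231% of all genes with a position. Summits of 6 of these animals lay 15028 to 15078 bases from the start, at folds of 1.71 to 2.93, and summits of 6 lay 16261 to 16324 bases from it, at 2.24 to 3.21. Its IP over input was −0.24, −0.18, −0.21 and −0.28 in the wild-type animals, −0.03, 0.01, −0.05 and −0.26 in the vehicle animals and −0.22, −0.05, 0.03 and −0.09 in the MS1262 animals, and the groups overlapped. The difference was 0.15 (SE 0.12, adjusted p = 0.644) in vehicle and 0.14 (SE 0.11, adjusted p = 0.760) in MS1262 against wild-type mice. Allowing 1 wild-type animal adds Eif1 and Eif3h, 3 genes against 0.794%. The authors' lists held 3534 to 5004 peaks in wild-type, 3794 to 6591 in vehicle and 4393 to 6097 in MS1262 animals, with the most peaks over these genes, 49, in vehicle animal 4, and the part of list length in these patterns was not tested. With peaks at −log10 q of at least 2, 25 genes kept a peak in at least 1 animal, against 32.3% of all genes. Eif4g2 alone remained in all 12, against 3.45%.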

How the data were processed

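MeRIP-seq of mouse hippocampus gave 1 input and 1 m6A IP library from each of 12 animals. Part of each poly(A) RNA served as input and the rest went to the antibody, per the labels' protocols, and both were made into SMART-seq libraries without molecular identifiers, so counts are reads and PCR copies cannot be told from molecules. The authors deposited estimated counts and TPM per gene for 24 libraries, and the submitters' processing notes name Salmon 1.4.0 and STAR 2.7.6a, MACS2 2.1.2, Trimmomatic 0.32, SAMtools 1.10 and bcl2fastq 2.17.1.14, and the builds GRCm38 and mm10. The names of the deposited count and TPM tables credit Salmon, and whether strand was used is not given in the sources used here. Of the nonzero deposited estimated counts 22.1% were not whole, and all were rounded. Peak lists hold a pileup signal, fold enrichment and −log10 p and q values per animal as deposited. Per the file headers they were called with MACS2 on the IP against the input of the same animal at a q cutoff of 0.5, and 35 to 66% of tags were redundant.

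Groups came from the sample titles. Genes passed edgeR's filterByExpr at a minimum count of 10. Input libraries, IP libraries and all 24 libraries, the last with an animal block and group-by-IP terms, were each fitted in R 4.3.3 with TMM scaling and edgeR 4.0.16's quasi-likelihood test, with 9 residual degrees of freedom and Benjamini-Hochberg adjustment over all tested genes at 0.05. Intervals are the estimate ± 1.96 SE. Values per animal are CPM with TMM factors over all 24 libraries, with a prior of 0.5 before the log2. A gene had a peak where at least 1 base overlapped it. Scripts were tested on simulated data. Input and IP of the same animal deviated together (r from 0.151 to 0.376, 12 of 12 pairs over 0.1), so the animal was the block. Library totals are given in the report, and counting error sets only part of the spread between animals.

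The members and the gene lists were chosen with earlier results of these data known. Named were all genes past the threshold where up to 12 passed and otherwise the 6 higher and 6 lower with the largest fold, the 3 smallest p where fewer than 3 passed, a fixed set of main factors, and up to 4 genes of each other list. Further genes of the eIF3, eIF2 and peak results, and those whose groups did not overlap, were named after their values were seen. Alternatives were RLE scaling, no low-count filter, DESeq2 1.42.0, limma 3.58.1 on log2(TPM + 1) and log2(TPM + 0.1), replicate number as a block, no animal block, each animal left out, a −log10 q of at least 2, summits in place of overlap and, chosen after seeing the data, vehicle animals 3 and 4 both left out.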

Additional observations from a re-analysis of the deposited data

Results flagged for a closer look

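In groups of 4 animals, 10 values lay far from the other 3 among 102 groups looked at for 17 genes, where chance gives about 1 in 20. All are on a log2 scale. Of input levels in log2 CPM, Eif1a stood at 7.70 in wild-type animal 2 against 7.54 to 7.56 in the others of its group. Eif3g stood at 2.54 in wild-type animal 4 against 2.98 to 3.06. Among vehicle animals, Eif1ad was at 3.83 in animal 1 against 4.15 to 4.17, Eif4ebp2 at 2.76 in animal 2 against 3.40 to 3.48 and Eif3h at 6.32 in animal 4 against 5.80 to 5.86. Among MS1262 animals, Eif2ak4 was at 3.18 and Eif5a at 6.87 in animal 1, against 3.62 to 3.65 and 6.30 to 6.35, and Eif3f at 5.24 in animal 4 against 4.79 to 4.83. Of log2 IP over input, Eif1a stood at −1.17 in vehicle animal 4 against −0.27 to −0.21, and Eif5a at 0.36 in MS1262 animal 1 against 0.70 to 0.74.

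Eif1ad passed the test of the difference in IP over input, by 0.75 on the log2 scale in MS1262 against wild-type mice. The call was lost in 9 of 20 alternatives, and it was 1 of 50 genes, against 1.24% of all tested genes.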

How the results depend on the processing

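The count of 0 for expression held under every alternative run in all 3 comparisons, and the 41 genes of IP over input ranged from 37 on both TPM scales to 44 without vehicle animal 4. Without the animal block that count was 38, and within groups it was 18, 21 and 24. The shares of all genes without that block are not given here. With the replicate number as a block, 0 genes passed for expression and IP level. The same numbers in different groups did not deviate together (r from −0.0893 to 0.0443, 0 of 12 pairs over 0.1), so they share only a number. For IP over input in MS1262 against wild-type mice, adding the replicate number as a block within IP and input gave 0 in place of 1, and so did leaving out the animal block.

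In that comparison both TPM scales gave 0, DESeq2 and no low-count filter gave 3, leaving out vehicle animals 3 and 4 gave 4, and leaving out 1 animal gave 0 to 4. Of all genes 2.81% passed with DESeq2 and 4.1% without vehicle animals 3 and 4. In vehicle against wild-type mice DESeq2 gave 2 in place of 0 (Eif1ad and Eif4a3), and so did no low-count filter (Eif4a3 and Eif6). Both TPM scales gave 1 (Eif1ad), and leaving out vehicle animals 3 and 4 gave 1 (Eif4a3). Of all genes 2.75% passed with DESeq2, 0.437% on TPM + 1, 0.503% on TPM + 0.1 and 1.76% without vehicle animals 3 and 4. Shares without the low-count filter are not given here. For IP level in MS1262 against wild-type mice, leaving out 1 animal gave 0 to 3. Leaving out vehicle animals 3 and 4 gave 1, against 3.57% of all genes. For IP over input within groups, leaving out 1 animal gave 15 to 35 in wild-type, 23 to 34 in vehicle and 21 to 37 in MS1262 animals. The shares of all genes moved too. Without wild-type animal 3 they were 23.7%, 37.6% and 36.1% in that order, and without vehicle animal 4 they were 41.2%, 39.7% and 45.9%. The cause was not tested.

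Of the values of single genes under alternatives, 1695 kept direction and side of the threshold, 65 lost and 27 gained a call, and 27 reversed. On log2(TPM + 1) and log2(TPM + 0.1), IP over input over all groups turned to 0.170 and 0.215 for Eif2ak4, 0.188 and 0.188 for Eif2s1, 0.387 and 0.418 for Eif2ak1, 0.300 and 0.359 for Eif2ak3, 0.0495 and 0.0503 for Eif3a, 0.430 and 0.432 for Eif3e, 0.596 and 0.597 for Eif4a2, 0.503 and 0.514 for Eif4b, 0.333 and 0.333 for Eif4e, 0.186 and 0.191 for Eif4h, and 0.389 and 0.401 for Eif5a2. Eif2ak4 in vehicle animals turned to 0.280 and 0.366. With 1 animal left out, Eif4ebp1 ranged from −0.0454 to 0.329 in IP over input over all groups and from −1.974 to 0.0315 in IP level in MS1262 against vehicle mice, in both turning sign without vehicle animal 4, and the latter was 0.00404 without vehicle animals 3 and 4. The shallow IP of vehicle animal 4 limits that animal's values, and wild-type mice were not dosed.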
